A study of Homo sapiens with 10 samples.

Results

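The genes described here encode the cell-surface partners of WNT signalling other than the Frizzled receptors. They are the co-receptors LRP5 and LRP6 with their relative LRP4, the alternative receptors ROR1, ROR2, RYK and PTK7, the R-spondin receptors LGR4 and LGR5, and the Dickkopf receptor KREMEN1. They were chosen by symbol from the deposited table and make up 10 of its 35940 gene symbols. Each has 1 Ensembl identifier there. A total of 15251 symbols had enough reads to be tested, and these include 9 of the 10 genes. LGR5 fell under the filter on low counts.

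RNA was sequenced from wild-type ESI017 cells, a human pluripotent stem cell line, at 2 libraries for each of 5 groups. All cells were kept in mTeSR1, a defined medium for the pluripotent state. The groups were recombinant WNT3A at 300 ng/ml for 6 h, the same for 18 h, CHIR99021 at 8 µM for 6 h, the same for 18 h, and mTeSR1 with no addition. CHIR99021 is a small molecule that inhibits the kinase GSK3. The work was done as 2 biological repeats. Both CHIR99021 18 h libraries belong to repeat 2, and their replicate numbers are names only. Every other group has 1 library of each repeat. The labels list no solvent control for CHIR99021 and no time for mTeSR1, so time in culture and solvent cannot be told apart from treatment. All 4 treatments are set against the same mTeSR1 libraries. Library totals lay between 1.66e+07 and 2.67e+07 estimated counts. WNT3A 6 h replicate 2 and mTeSR1 replicate 2 stood apart in a trend with transcript length. Across genes, their deviation from the mean of all libraries correlated with transcript length at Spearman 0.448 and 0.349, against -0.293 to -0.0130 in the other 8.

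In canonical WNT signalling a WNT ligand joins a Frizzled receptor to LRP5 or LRP6 at the cell surface. The complex holds off GSK3, and β-catenin then accumulates and enters the nucleus. CHIR99021 acts on GSK3 itself, below the receptors. ROR1, ROR2, RYK and PTK7 are receptors with a kinase-like intracellular domain that are best known from WNT5A-type signalling and planar cell polarity, in which cells move and orient within a sheet. LGR4 and LGR5 bind R-spondins, which protect Frizzled and LRP receptors from removal by the ubiquitin ligases ZNRF3 and RNF43. KREMEN1 binds Dickkopf proteins and with them takes LRP6 off the surface.

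The largest change of level among the 10 genes was in ROR2, whose share of the ROR pair changed with it while ROR1 passed no test. The start regions of both genes are shown for that contrast. Each runs from 250 bases before to 50 bases after the RefSeq transcription start, on GRCh38.p14, written 5′ to 3′ on the gene's strand. Capitals mark CTTTG, the core letters of the motif read by TCF and LEF factors, on either strand (CAAAG on the other). ROR2 lies on the minus strand at chr9:91950179-91950478, and ROR1 on the plus strand at chr1:63773767-63774066.
ROR2: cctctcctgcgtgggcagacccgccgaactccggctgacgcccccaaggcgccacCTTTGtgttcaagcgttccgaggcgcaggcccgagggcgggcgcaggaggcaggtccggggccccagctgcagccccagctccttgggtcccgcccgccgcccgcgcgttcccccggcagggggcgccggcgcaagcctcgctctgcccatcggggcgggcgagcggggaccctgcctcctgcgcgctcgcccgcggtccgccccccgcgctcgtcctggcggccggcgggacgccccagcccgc
ROR1: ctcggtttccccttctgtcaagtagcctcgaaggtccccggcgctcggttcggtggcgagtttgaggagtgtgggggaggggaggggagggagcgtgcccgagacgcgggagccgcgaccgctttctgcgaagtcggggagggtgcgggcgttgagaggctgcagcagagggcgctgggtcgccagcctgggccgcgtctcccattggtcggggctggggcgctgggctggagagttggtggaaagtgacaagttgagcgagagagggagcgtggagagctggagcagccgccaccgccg
The ROR2 window held 1 such core, beginning 195 bases before the start (position -195), and the ROR1 window held 0. Of the 10 genes, 6 had an entry in the RefSeq table. The windows of LRP5, RYK, LGR4 and PTK7, which has 2 entries, held 0. LRP4, LRP6, LGR5 and KREMEN1 had none. The core alone is common, and was present in 47.5% of 35116 windows of the same length. Longer forms, in which AA, AT, TA or TT follows CTTTG on either strand, were present in 13.8% of all windows and in 0 of the 7 windows of these genes. A match describes letters in a window and does not show a site.

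Levels were compared between genes per transcript length, as TPM (transcript abundance scaled to length and library total) on the principal transcript of GENCODE release 29. In mTeSR1 PTK7 was highest, at a mean of 109 TPM, followed by ROR1 at 80.1 TPM and LGR4 at 55.2 TPM. RYK followed at 44.7 TPM, a value that was 29.1 TPM when its longest transcript was used, below LRP5 and LRP6. LRP5 averaged 36.7 TPM and LRP6 30.6 TPM, and the ranges of these neighbours overlapped. LRP4 averaged 11.1 TPM, ROR2 4.24 TPM, KREMEN1 2.53 TPM and LGR5 0.0923 TPM. Untreated cells thus held transcripts of both canonical co-receptors at like levels, and far more ROR1 than ROR2. A level in bulk RNA does not tell fewer cells of a type apart from less RNA per cell.

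**Figure D1:**
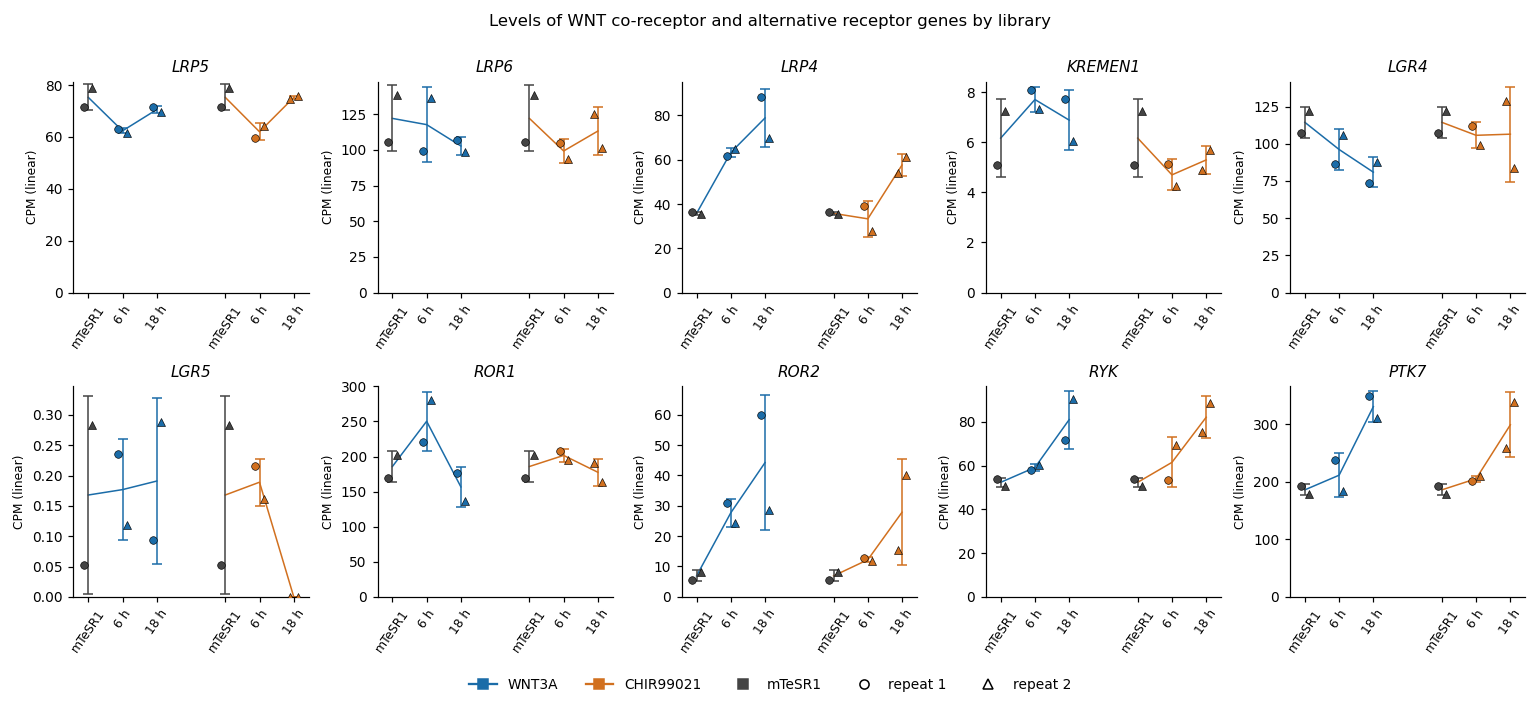
Levels of the 10 genes in CPM (counts scaled to the library total, linear axis) by library. Each panel gives mTeSR1, 6 h and 18 h for WNT3A on the left and CHIR99021 on the right, with the same mTeSR1 libraries drawn in both; circles are repeat 1, triangles repeat 2, and lines and bars show the mean and SD of 2 libraries. LRP4, ROR2, RYK and PTK7 sit higher at 18 h of either agent than in mTeSR1, while LGR5 stays under 0.3 CPM throughout.

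The first question was which of these genes respond to the ligand and to the inhibitor. Tests were edgeR quasi-likelihood tests over all 15251 symbols, with a gene called changed at a Benjamini-Hochberg adjusted p (FDR) under 0.05. Of 72 tests of these genes in 8 comparisons, 2 passed. LRP4 and ROR2 rose after 18 h of WNT3A against mTeSR1, 2 of 9 genes tested, where 2.10% of all symbols were called and 1.04% were called higher. The other 7 comparisons called 0 of the 9. Only comparisons with CHIR99021 at 18 h had the repeat as a block. With the block, WNT3A at 18 h called 3 of the 9, where 751 of all symbols were called in place of 320. Counts at an unadjusted p under 0.05 were 3 of 9 for WNT3A at 6 h, 5 of 9 for WNT3A at 18 h, 1 of 9 for CHIR99021 at 6 h and 4 of 9 for CHIR99021 at 18 h. Over all symbols the shares at that p were 6.16%, 13.6%, 4.75% and 19.6% in the same order. DESeq2 called 2, 4, 0 and 3 of the 9 in that order, where it called 1.63%, 5.30%, 0.426% and 6.02% of all symbols. For edgeR the share of all symbols called was 0.433% for WNT3A at 6 h, 0.0197% for CHIR99021 at 6 h and 2.78% for CHIR99021 at 18 h.

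**Figure D2:**
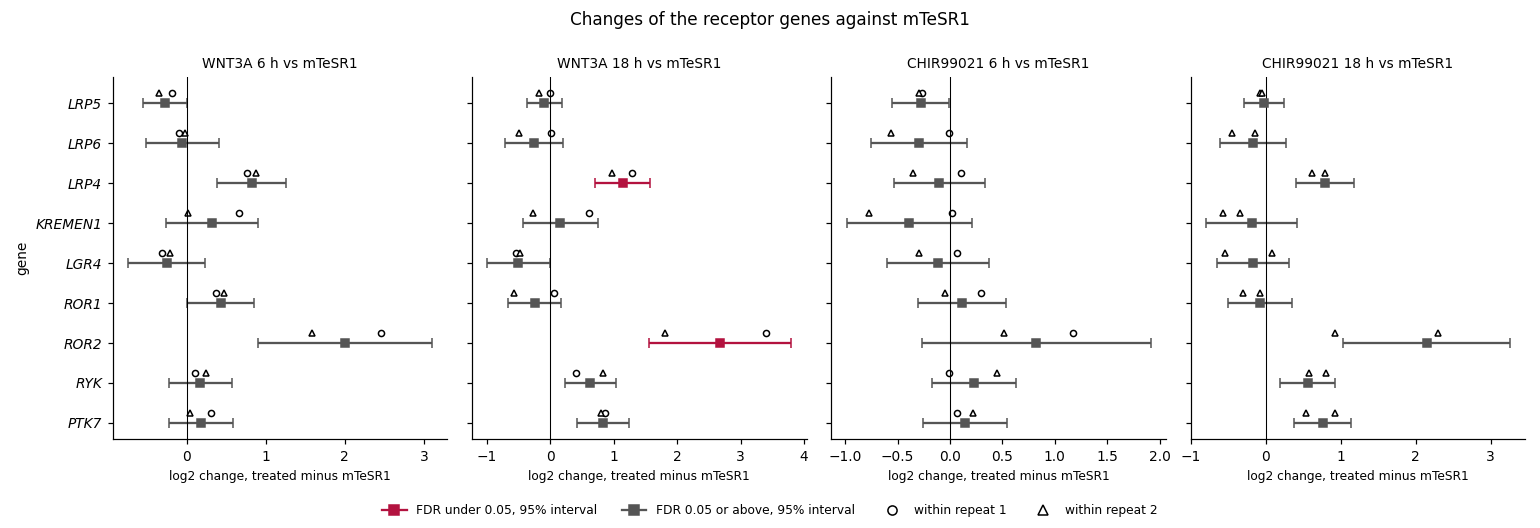
Log2 change of each tested gene against mTeSR1, treated minus mTeSR1, for the 4 treatments (each panel has its own axis). Squares and bars are edgeR estimates with 95% intervals, red where the FDR is under 0.05, and open symbols are changes within repeat 1 (circles) or repeat 2 (triangles). LRP4 at 1.14 and ROR2 at 2.68 under WNT3A for 18 h are the only red squares.

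Among the canonical co-receptors, LRP5 (ENSG00000162337, chr11:68312609-68449275) and LRP6 (ENSG00000070018, chr12:12116025-12267012), the receptors that join Frizzled in the WNT complex, were called in no comparison. LRP5 stood at 63.0 and 61.7 CPM after 6 h of WNT3A and at 59.6 and 64.4 CPM after 6 h of CHIR99021, against 71.7 and 78.8 CPM in mTeSR1. Both 6 h groups lay below mTeSR1 without overlap. The log2 changes were -0.27 (SE 0.12, FDR 0.81) for WNT3A and -0.28 (SE 0.12, FDR 0.95) for CHIR99021. The share of all symbols whose groups do not overlap was not counted. With 2 libraries a group, such separation is given for every receptor gene as a description and not as a result. At 18 h LRP5 was 71.5 and 69.6 CPM with WNT3A, just under the mTeSR1 libraries, and 74.7 and 75.7 CPM with CHIR99021, between them. LRP6 spanned 93.4 to 138 CPM over all 10 libraries, with its highest values in mTeSR1 replicate 2 and WNT3A 6 h replicate 2. Its log2 changes against mTeSR1 ran between -0.30 (CHIR99021 at 6 h, FDR 0.95) and -0.05 (WNT3A at 6 h, FDR 1.00). The 95% interval of the LRP6 change after 18 h of WNT3A was -0.71 to 0.21. LRP6 made up 40.8% to 53.2% of the length-scaled LRP5 and LRP6 level in every library, with no group apart from the others. The libraries with its highest values are those with the length trend, and LRP6 has a 10020-base transcript, the longest of the 10 genes. The part of that trend in the LRP6 values was not tested.

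LRP4 (ENSG00000134569, chr11:46856868-46918642) is a relative of LRP5 and LRP6 that binds agrin and the kinase MuSK at the nerve-muscle synapse and also binds WNT antagonists. It measured 61.7 and 64.9 CPM after 6 h of WNT3A and 88.2 and 69.6 CPM after 18 h, against 36.2 and 35.3 CPM in mTeSR1. Each WNT3A library lay above both mTeSR1 libraries, and each 18 h library above the 6 h library of its repeat. The log2 change was 1.14 at 18 h (SE 0.19, FDR 0.022), with 1.28 within repeat 1 and 0.98 within repeat 2. At 6 h it was 0.82 (SE 0.19), which missed the threshold at FDR 0.17, with 0.77 and 0.88 within the repeats. Of 18 alternative fits 2 passed, DESeq2 (FDR 0.020) and that with no filter on low counts (FDR 0.024). The FDR was 0.058 with the repeat as a block, 0.23 with a correction for transcript length and 0.51 with only the groups compared. Without the 2 libraries with the length trend the change was 0.76. From 6 h to 18 h of WNT3A the difference was 0.32 (FDR 0.46).

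Under CHIR99021 LRP4 measured 39.0 and 27.6 CPM at 6 h and 54.2 and 61.1 CPM at 18 h, against 36.2 and 35.3 CPM in mTeSR1. The 6 h libraries lay on either side of mTeSR1, while both 18 h libraries were above it. The log2 change at 18 h was 0.79 (SE 0.17), just short of the threshold at FDR 0.0503, and at 6 h it was -0.10 (FDR 0.96). Within repeat 2 the 18 h libraries differed from mTeSR1 by 0.62 and 0.79. With a correction for transcript length the 18 h change was 0.97 with FDR 0.0031, and with no term for the repeat it was 0.69 with FDR 0.15. DESeq2 gave FDR 0.0058. The change was 0.79 with FDR 0.020 when no filter on low counts was used, and 0.71 with FDR 0.040 when only the groups compared were fitted. Without the 2 libraries with the length trend it was 1.09 with FDR 0.017.

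The LRP4 call at 18 h of WNT3A rested on all 4 libraries of that comparison. The FDR was 0.10 without mTeSR1 replicate 1 and 0.14 without mTeSR1 replicate 2. With the repeat 1 library of WNT3A at 18 h left out it was 0.14, and with that of repeat 2 left out 0.073, while the log2 change stayed between 0.96 and 1.30. It was 0.11 without the 2 libraries with the length trend. LRP4 took 30.8% and 27.0% of the length-scaled LRP4, LRP5 and LRP6 level after 18 h of WNT3A and 25.7% and 23.9% after 6 h. Its share was 19.9% and 23.4% after 18 h of CHIR99021, 18.0% and 13.6% after 6 h, and 15.5% and 13.1% in mTeSR1. Both groups treated for 18 h, and WNT3A at 6 h, lay above mTeSR1 with no overlap.

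**Figure D3:**
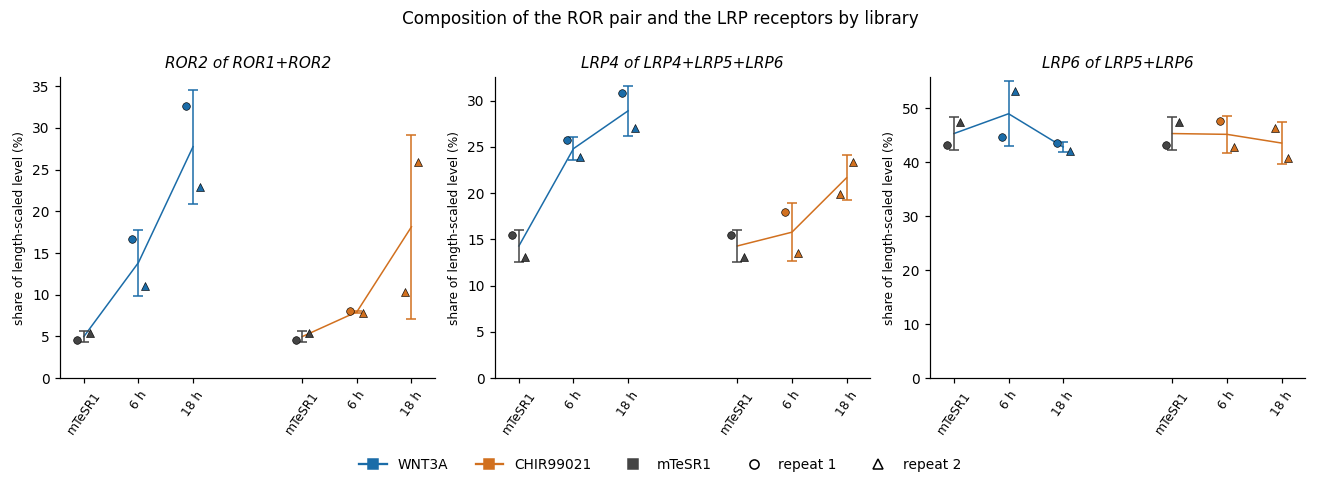
Share of the length-scaled level (percent, linear axis) that ROR2 takes of ROR1 and ROR2, LRP4 of the LRP4, LRP5 and LRP6 sum, and LRP6 of LRP5 and LRP6, by library, drawn as in the plot of levels. ROR2 reaches 32.6% under WNT3A at 18 h against 4.52% and 5.45% in mTeSR1, whereas LRP6 stays between 40.8% and 53.2%.

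ROR2 (ENSG00000169071, chr9:91563091-91950162) is a receptor tyrosine kinase-like protein that binds WNT5A. It measured 30.9 and 24.5 CPM after 6 h of WNT3A and 60.0 and 28.5 CPM after 18 h, against 5.65 and 8.16 CPM in mTeSR1. All 4 WNT3A libraries stood above both mTeSR1 libraries, and the repeat 1 library at 18 h was far above that of repeat 2. The log2 change was 2.68 at 18 h (SE 0.49, FDR 0.031), with 3.41 within repeat 1 and 1.81 within repeat 2. At 6 h it was 2.00 (SE 0.48), with 2.45 and 1.58 within the repeats, and missed the threshold at FDR 0.20. Of 18 alternative fits 1 passed, DESeq2 with FDR 0.0016. The FDR was 0.12 with the repeat as a block and 0.63 with no filter on low counts.

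Under CHIR99021 ROR2 measured 12.8 and 11.7 CPM at 6 h and 15.5 and 40.3 CPM at 18 h, against 5.65 and 8.16 CPM in mTeSR1. Every CHIR99021 library lay above mTeSR1, and the 18 h libraries, both of repeat 2, were far apart. The log2 change was 0.83 at 6 h (SE 0.48, FDR 0.95) and 2.14 at 18 h (SE 0.49, FDR 0.060). Within repeat 2 the 18 h libraries were 0.93 and 2.30 above mTeSR1. The 18 h FDR was 0.014 with CHIR99021 18 h replicate 1 left out and 0.38 with replicate 2 left out. DESeq2 gave FDR 5.5e-05 for the same change. Without the 2 libraries with the length trend the change was 2.95 with FDR 0.53.

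The ROR2 call after 18 h of WNT3A was lost without mTeSR1 replicate 1 (FDR 0.16), mTeSR1 replicate 2 (FDR 0.14), WNT3A 18 h replicate 1 (FDR 0.15) or WNT3A 18 h replicate 2 (FDR 0.059). It was also lost without CHIR99021 6 h replicate 1 (FDR 0.068) or replicate 2 (FDR 0.067), which enter through the shared fit. Without the 2 libraries with the length trend the FDR was 0.22, and with no filter on low counts 0.13. The log2 change stayed between 2.05 and 3.12 in these fits.

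ROR1 (ENSG00000185483, chr1:63774022-64181498), the other ROR receptor, passed no test. It measured 220 and 280 CPM after 6 h of WNT3A and 177 and 137 CPM after 18 h, against 170 and 202 CPM in mTeSR1. The 6 h libraries were the highest of all 10, and the 18 h libraries overlapped mTeSR1. The log2 change was 0.43 at 6 h (FDR 0.79) and -0.25 at 18 h (FDR 0.64). From 6 h to 18 h of WNT3A it was -0.68 (95% interval -1.10 to -0.25, FDR 0.20). With CHIR99021 ROR1 was 208 and 195 CPM at 6 h and 191 and 164 CPM at 18 h, and the log2 changes against mTeSR1 were 0.12 (FDR 0.96) and -0.08 (FDR 0.83).

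The makeup of the ROR pair followed from these levels. ROR2 took 32.6% and 22.9% of the length-scaled ROR1 and ROR2 level after 18 h of WNT3A and 16.7% and 11.1% after 6 h. It took 10.3% and 25.9% after 18 h of CHIR99021 and 8.02% and 7.87% after 6 h, against 4.52% and 5.45% in mTeSR1. ROR1 remained the larger share in every library.

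RYK (ENSG00000163785, chr3:134065303-134250744), a receptor with an inactive kinase domain that binds WNTs, was called in no comparison. It measured 57.9 and 60.4 CPM after 6 h and 71.7 and 90.4 CPM after 18 h of WNT3A, 53.4 and 69.6 CPM after 6 h and 75.4 and 88.8 CPM after 18 h of CHIR99021, and 53.9 and 50.8 CPM in mTeSR1. All 4 libraries treated for 18 h stood above every mTeSR1 and 6 h library. The log2 changes at 18 h were 0.63 for WNT3A (SE 0.18, FDR 0.13) and 0.56 for CHIR99021 (SE 0.16, FDR 0.12). DESeq2 gave FDR 0.049 for WNT3A and 0.064 for CHIR99021. With only the groups compared in the fit the CHIR99021 change was 0.69 with FDR 0.042, and without the 2 libraries with the length trend it was 0.25 with FDR 0.57.

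PTK7 (ENSG00000112655, chr6:43076268-43161719), a pseudokinase that acts in planar cell polarity, was called in no comparison. It measured 238 and 185 CPM after 6 h and 350 and 311 CPM after 18 h of WNT3A, against 193 and 179 CPM in mTeSR1. With CHIR99021 it was 201 and 209 CPM at 6 h and 259 and 339 CPM at 18 h. The 18 h libraries of both agents lay above all others. The log2 change at 18 h of WNT3A was 0.83 (SE 0.18, FDR 0.057), and 0.86 and 0.80 within the repeats. With the repeat as a block it was 0.83 with FDR 0.022, past the threshold. It also passed in DESeq2 (FDR 0.0017), with no filter on low counts (FDR 0.0075) and with the length correction (FDR 0.047), and was 0.78 with FDR 0.12 without the 2 libraries with the length trend. The change at 18 h of CHIR99021 was 0.76 (SE 0.17, FDR 0.053), and with no block it was 0.69 with FDR 0.13. It passed in DESeq2 (FDR 0.0027), with no filter on low counts (FDR 0.020) and with the length correction (FDR 0.023). With CHIR99021 18 h replicate 1 left out the change was 0.94, and with replicate 2 left out it was 0.56. Without the 2 libraries with the length trend it was 0.69. Within repeat 2 the CHIR99021 libraries were 0.53 and 0.92 above mTeSR1.

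Of the R-spondin receptors, LGR4 (ENSG00000205213, chr11:27365961-27472775) measured 86.4 and 106 CPM after 6 h and 73.8 and 87.9 CPM after 18 h of WNT3A, against 107 and 122 CPM in mTeSR1. Both WNT3A groups lay below mTeSR1. The log2 change at 18 h was -0.50 (95% interval -0.99 to -0.01, FDR 0.35), with -0.53 within repeat 1 and -0.47 within repeat 2. LGR4 under CHIR99021 was 112 and 99.5 CPM at 6 h and 129 and 83.8 CPM at 18 h. Those at 18 h lay on either side of mTeSR1, with a log2 change of -0.17 (FDR 0.67).

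LGR5 (ENSG00000139292, chr12:71439770-71586310) was close to undetected. It measured 0.236 and 0.118 CPM after 6 h and 0.0941 and 0.288 CPM after 18 h of WNT3A, and 0.216 and 0.162 CPM after 6 h of CHIR99021. Both CHIR99021 18 h libraries held 0 counts, and mTeSR1 held 0.0523 and 0.283 CPM. The limit that a count of 0 allows, 3 counts, was 0.118 to 0.179 CPM over the libraries, for counting error only. No library held more than 5 LGR5 counts. A fall or a small change in LGR5 was not detectable at this depth, and no large rise was seen. KREMEN1 (ENSG00000183762, chr22:29073078-29168333) was low, at 4.26 to 8.06 CPM over all libraries. It measured 7.72 and 6.04 CPM after 18 h of WNT3A and 4.89 and 5.70 CPM after 18 h of CHIR99021, against 5.07 and 7.26 CPM in mTeSR1. Its log2 changes at 18 h were 0.16 (FDR 0.83) and -0.19 (FDR 0.71).

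The next question was whether a block of GSK3 below the receptors gives these genes the same levels as the ligand. At 6 h LRP4 was 39.0 and 27.6 CPM with CHIR99021 and 61.7 and 64.9 CPM with WNT3A. The CHIR99021 libraries were lower with no overlap, and the log2 difference was -0.93 (95% interval -1.36 to -0.49). It missed the threshold in edgeR at FDR 0.69 and passed in DESeq2 at FDR 0.025. ROR2 at 6 h was 12.8 and 11.7 CPM with CHIR99021 and 30.9 and 24.5 CPM with WNT3A, a log2 difference of -1.18 (95% interval -2.24 to -0.12, FDR 0.69). KREMEN1 at 6 h averaged 4.70 ± 0.62 CPM with CHIR99021 and 7.70 ± 0.51 CPM with WNT3A (SD, 2 libraries each), a difference of -0.71 (95% interval -1.30 to -0.12, FDR 0.69). edgeR called 0 of the 9 genes at 6 h, 3 at an unadjusted p under 0.05, and DESeq2 called 1. Over all symbols edgeR called 0.00656%, DESeq2 0.197%, and 6.53% were under that unadjusted p.

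At 18 h the differences between the agents were smaller in size than at 6 h for LRP4, LRP6, ROR1, ROR2 and KREMEN1. For LRP5, RYK, PTK7 and LGR4 they were not. The 18 h fit has the repeat as a block and the 6 h fit does not. LRP4 was 54.2 and 61.1 CPM with CHIR99021 and 88.2 and 69.6 CPM with WNT3A, a log2 difference of -0.34 (95% interval -0.73 to 0.04). ROR2 overlapped between the agents, with a difference of -0.47 (95% interval -1.56 to 0.61). RYK and PTK7 differed by -0.06 (95% interval -0.42 to 0.30) and -0.07. edgeR called 0 of the 9 at 18 h, 0 at an unadjusted p under 0.05 and DESeq2 0. Over all symbols edgeR called 0%, DESeq2 0.0590%, and 4.12% were under that unadjusted p. The intervals for ROR2 leave room for differences of more than 1 on the log2 scale, so the test does not show that the agents act alike on it.

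**Figure D4:**
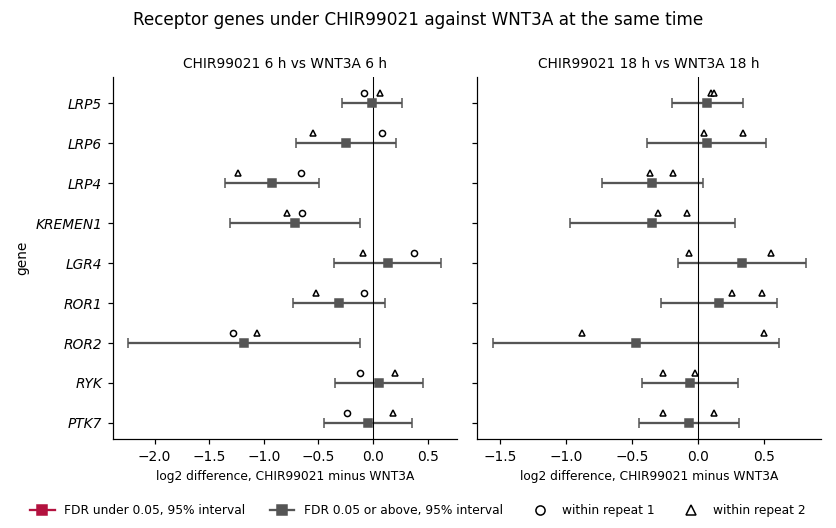
Log2 difference between the agents at the same time, CHIR99021 minus WNT3A, for each tested gene at 6 h and at 18 h (each panel has its own axis). Squares and bars are edgeR estimates with 95% intervals and open symbols are differences within repeat 1 (circles) or repeat 2 (triangles). LRP4 at -0.93 and ROR2 at -1.18 lie left of 0 at 6 h, and at 18 h all intervals include 0.

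Time courses were compared within each agent. From 6 h to 18 h of CHIR99021 LRP4 differed by 0.90 (95% interval 0.51 to 1.30), with an unadjusted p of 0.00064 and an FDR of 0.21. ROR2 differed by 1.34 (95% interval 0.25 to 2.43, FDR 0.55) and PTK7 by 0.61 (FDR 0.36). From 6 h to 18 h of WNT3A PTK7 differed by 0.65 (FDR 0.20) and RYK by 0.45 (FDR 0.35). edgeR called 0 of the 9 in both, with 3 at an unadjusted p under 0.05 in each and 1 called by DESeq2 in each. Over all symbols edgeR called 0.144% for WNT3A and 0.00656% for CHIR99021. The shares under that unadjusted p were 13.2% and 6.85%, and DESeq2 called 2.72% and 0.879%. In a test of the difference between the agents' time courses, added after the data were seen, LRP4 gained 0.60 more with CHIR99021 than with WNT3A on the log2 scale (95% interval 0.06 to 1.14, edgeR FDR 0.93).

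The genes whose log2 CPM most resembled LRP4 over the 10 libraries were CDC14B (Pearson r = 0.958), NEBL (0.956) and TMOD3 (0.942). For ROR2 they were TMEM132C (0.972), SH3KBP1 (0.968) and EOMES (0.962). These values describe libraries that share groups and repeats. EOMES, a T-box factor of the primitive streak, measured 99.1 and 57.0 CPM after 18 h of WNT3A and 11.2 and 74.8 CPM after 18 h of CHIR99021, against 0 and 0.283 CPM in mTeSR1. Within both 18 h groups the library with more EOMES also had more ROR2. EOMES was picked for its likeness to ROR2 over these same libraries, so this order is no further evidence.

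Of 6 primitive streak markers 5 were tested, and 4 rose after 18 h of WNT3A (TBXT, EOMES, MIXL1 and NODAL) and 2 after 18 h of CHIR99021 (EOMES and NODAL). With the block for the repeat the count for WNT3A was 3, TBXT being lost at FDR 0.061, and with no block that for CHIR99021 was 3, TBXT being added at FDR 0.048. NODAL at 6 h missed the threshold, at FDR 0.064 for WNT3A and 0.34 for CHIR99021, and passed with the block at FDR 0.00064 and 0.0071. Their summed level was 138 and 168 CPM after 6 h and 303 and 451 CPM after 18 h of WNT3A, 38.6 and 85.9 CPM after 6 h and 147 and 350 CPM after 18 h of CHIR99021, and 4.60 and 11.2 CPM in mTeSR1. The sum was above mTeSR1 in both CHIR99021 6 h libraries, while LRP4 there lay on either side of mTeSR1. The sum, MIXL1 and NODAL were higher in the WNT3A 18 h library of repeat 2, which had less ROR2. EOMES and TBXT were higher in that of repeat 1. TBXT was at 0 in both mTeSR1 libraries. Pluripotency markers, 8 of 8 detected in every library, summed to 9554 and 9512 CPM in mTeSR1. The sum was lower in every treated library, at 7130 to 8881 CPM. Against mTeSR1 0 of the 8 were called, and with the block DNMT3B was called lower after 18 h of WNT3A. Of 6 fibroblast markers 3 were tested and COL1A2 rose after 18 h of WNT3A (log2 0.99, FDR 0.048). The median log2 change of the 3 was -0.16. The fibroblast sum was 179 to 183 CPM after 18 h of WNT3A and 80.2 to 122 CPM in mTeSR1. COL1A2 alone was 165 and 166 CPM in those WNT3A libraries and 67.4 and 99.7 CPM in mTeSR1. PDGFRB was at 10.4 to 21.9 CPM over all libraries. DCN was at 0 in all 10 libraries, and LUM, COL3A1 and TWIST2 were at most 0.0523, 0.330 and 0.790 CPM. Neural progenitor markers had 0 of 5 called against mTeSR1. Their sum was 448 to 484 CPM in mTeSR1, 432 to 498 CPM after 6 h and 266 to 430 CPM after 18 h of WNT3A. With CHIR99021 it was 235 to 434 CPM after 6 h and 243 to 262 CPM after 18 h. Most of this sum was NES, at 225 to 464 CPM over all libraries, with FABP7 at 4.79 to 30.0 CPM. PAX6, SOX1, POU3F2 and LHX2 were at most 1.79, 0.169, 1.32 and 3.54 CPM. Of trophoblast and amnion markers 1 of 3, GABRP, fell by 2.00 after 18 h of CHIR99021, with FDR 0.0499 and with FDR 0.53 when no block was used. After 18 h of WNT3A 0 of the 3 were called, and with the block 1 was higher and 2 were lower, among them GABRP (FDR 0.48, and 0.045 with the block). The part of any of these in the receptor values was not tested.

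Other genes of the same machinery give the setting. In the R-spondin module, 1 of 6 tested genes rose after 18 h of each agent and 0 at 6 h. It was RNF43, a ubiquitin ligase that removes Frizzled and LRP receptors, with a log2 change of 3.97 for WNT3A (FDR 0.015) and 3.82 for CHIR99021 (FDR 0.017). RNF43 measured 21.3 and 23.0 CPM after 18 h of WNT3A and 10.8 and 31.0 CPM after 18 h of CHIR99021, against 0.680 and 2.15 CPM in mTeSR1. At 6 h of WNT3A RNF43 differed by 3.45 with FDR 0.055, and with the block it passed at FDR 0.030. Its relative ZNRF3 differed by 0.42 (FDR 0.27) and 0.45 (FDR 0.18). RSPO3, an R-spondin, was under the count filter, at 0 to 0.660 CPM.

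Among 9 tested genes for LRP5 and LRP6 ligands, antagonists and maturation, 1 rose after 18 h of each agent. It was APCDD1, a membrane-bound WNT inhibitor, by 3.83 with WNT3A (FDR 0.031) and 3.51 with CHIR99021 (FDR 0.018). APCDD1 measured 89.3 and 42.6 CPM after 18 h of WNT3A and 16.0 and 57.6 CPM after 18 h of CHIR99021, against 6.01 and 3.23 CPM in mTeSR1. With no block the CHIR99021 call was lost at FDR 0.086. With the block 1 gene more was called for WNT3A at each time, DKK4 higher at 6 h and DKK3 lower at 18 h. DKK1, a secreted LRP6 antagonist, differed by 2.28 (SE 1.66, FDR 0.63) and 3.82 (SE 1.44, FDR 0.20). MESD, the chaperone of LRP5 and LRP6, differed by 0.04 (FDR 0.92) and 0.28 (FDR 0.25). Among 14 kinases, scaffolds and cofactors that act on LRP6, AXIN2 alone rose, by 2.61 after 6 h (FDR 0.015) and 2.42 after 18 h of WNT3A (FDR 0.011) and by 2.51 after 18 h of CHIR99021 (FDR 0.0084).

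Among 15 tested genes of planar polarity and WNT5A-type signalling, 1 rose after 18 h of each agent. It was WNT5B, a ligand of that class, at 144 and 84.1 CPM after 18 h of WNT3A and 19.1 and 116 CPM after 18 h of CHIR99021, against 1.73 and 0.907 CPM in mTeSR1. The log2 changes were 6.42 (FDR 0.015) and 6.15 (FDR 0.021). In both groups the library with more ROR2 had more WNT5B. The same order held for AXIN2, APCDD1 and TBXT and for the receptor genes LRP4 and PTK7, though not for RNF43 or NODAL. The share of all symbols with this order was not counted. With 2 libraries a group, the order is no evidence of a link between these genes. With the block CELSR3 was also called for WNT3A at 18 h, lower. WNT5A differed by 0.03 (FDR 0.98) and 0.40 (FDR 0.49), at 2.10 to 5.30 CPM over all libraries, and VANGL2, a membrane protein of planar polarity, by -0.04 (FDR 0.93) and 0.05 (FDR 0.86).

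Of other LDL receptor relatives, 9 tested, LRP11 fell by 0.91 on the log2 scale after 18 h of WNT3A (FDR 0.036), and VLDLR, a lipoprotein and reelin receptor, fell by 1.21 after 18 h of CHIR99021 (FDR 0.037). With no block the VLDLR call was lost at FDR 0.30. At 6 h of WNT3A VLDLR differed by -1.59 with FDR 0.20, and it passed with the block at FDR 0.017. The agrin and MuSK partners of LRP4 had 2 of 4 genes tested and 0 called against mTeSR1. The median log2 change of the 9 receptor genes after 18 h of WNT3A was 0.16, beside 0.02 over all symbols tested, and after 18 h of CHIR99021 it was -0.02, beside 0.02.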

How the data were processed

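Values are estimated counts per gene that the authors deposited, 1 column a library. Per the submitters' processing notes, Salmon 1.8.0 and GRCh38 were used. The transcript set and the summing to genes are each not given in the sources used here. Counts of a symbol's rows were summed and rounded to whole numbers. Tests used edgeR 4.0.16 in R 4.3.3, with the quasi-likelihood test (robust), TMM scaling, a minimum count of 10 and total of 15, and all 10 libraries in 1 fit. P-values were adjusted over all 15251 symbols. A block for the repeat was fitted where CHIR99021 at 18 h is compared, because its libraries are all of repeat 2, and nowhere else. The main fits of the other comparisons thus leave out the pairing by repeat, so calls are not on the same footing between them. The labels do not name separate cultures beyond the repeats, so the 2 CHIR99021 18 h libraries may differ by technical spread alone. The main tests count them as independent, with a spread estimated over all 5 groups. With the compared groups alone and the block, only the difference between those 2 libraries gives the spread. The p-values of that fit may thus measure technical spread. CPM use TMM-scaled totals, and TPM use GENCODE 29 transcript lengths.

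The design text gives the repeats, which pair the libraries. Deviations from group means correlated at 0.261 to 0.595 over 6 pairs of groups. Replicates differed beyond sampling noise, with a chi-square per degree of freedom of 11.1 to 82.9. The fit was tested on simulated data, for WNT3A at 18 h against mTeSR1. The simulated counts held no pairing by repeat and no trend with transcript length, so that test does not bear on either. All 10 receptor genes are described. Named genes of other lists are those with FDR under 0.05, up to 3 a list and comparison, plus ZNRF3, RNF43, RSPO3, DKK1, MESD, VANGL2, WNT5A and WNT5B. TBXT, EOMES, MIXL1, NODAL and the genes called only with the block were named after their values were seen. So were the neural progenitor markers, and the fibroblast markers other than COL1A2. The 3 most alike symbols are named for each called receptor gene. Members and lists were chosen with earlier results of these data known. Alternatives were DESeq2 1.42.0, RLE size factors, no filter, 1 row per identifier, the compared groups alone, a length offset, the other use of the block and leaving out libraries. Counts assigned to related genes were 0 to 2 for RYKP1, 5 to 25 for BCL2L14, which overlaps LRP6, and 108 to 196 for LRP5L beside 1103 to 1571 for LRP5. Reads shared between them were not measured, so LRP5 is uncertain to that extent.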

Additional observations from a re-analysis of the deposited data

How the results depend on the processing

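Of 576 values for single genes under settings other than leaving out 1 library, 532 kept their direction and side of the threshold, 23 newly passed it, 3 no longer passed and 18 changed sign. Of 720 values with 1 library left out the numbers were 671, 6, 10 and 33. Those that changed sign were past the threshold in neither fit. With the replicate block 3 receptor genes in place of 2 were called for WNT3A at 18 h, PTK7 being added, beside 751 of all symbols in place of 320. The count of receptor genes stayed at 0 for WNT3A and CHIR99021 at 6 h. With no replicate block it stayed at 0 for CHIR99021 at 18 h. DESeq2 called 2 for WNT3A at 6 h, 4 for WNT3A at 18 h, 3 for CHIR99021 at 18 h, 1 in each agent's time course and 1 between the agents at 6 h. Of all 15251 symbols it called 249, 809 and 918 against mTeSR1 in that order. It called 415 in the WNT3A time course, 134 in that of CHIR99021 and 30 between the agents at 6 h. With no filter on low counts 1 was called for WNT3A at 6 h and 2 for CHIR99021 at 18 h, beside 173 and 576 of 22334 symbols. The compared groups alone and the length offset each gave 2 for CHIR99021 at 18 h, beside 1241 of 14600 and 789 of 15251 symbols. The length offset gave 1 for the CHIR99021 time course, beside 13 of 15251 symbols. Without the 2 libraries with the length trend, chosen after seeing the data, mTeSR1 and WNT3A at 6 h keep 1 library each. The log2 changes in that fit were 1.12 for LRP4 and 2.97 for ROR2 after 18 h of WNT3A. For LRP4 it gave 1.09 after 18 h of CHIR99021 and 1.03 in the CHIR99021 time course. Leaving out 1 library gave 0 to 3 for WNT3A at 18 h and 0 to 2 for CHIR99021 at 18 h.

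With 1 library left out, values that changed sign reached 0.31 for KREMEN1 at CHIR99021 18 h (range -0.46 to 0.31), 0.21 for LGR4 in the CHIR99021 time course (-0.41 to 0.21) and 0.16 for LRP6 at WNT3A 6 h (-0.30 to 0.16). Under the length offset the sign changes were LRP4 at 0.026 for CHIR99021 at 6 h, LRP5 at 0.032, LRP6 at 0.064 and ROR1 at 0.0040 for CHIR99021 at 18 h, LRP6 at 0.14 for the WNT3A time course, and LRP5 at 0.062, LRP6 at 0.044 and PTK7 at 0.027 between the agents at 6 h. Without the libraries with the length trend they were LRP5 at 0.037, LRP6 at 0.25, ROR1 at 0.30 and KREMEN1 at 0.38 for CHIR99021 at 18 h, LRP6 at 0.062 for the WNT3A time course and LRP6 at 0.0072 between the agents at 6 h. With the compared groups alone LRP5 was at 0.0012 between the agents at 6 h and LGR4 at 0.10 for the CHIR99021 time course. With no replicate block LGR4 was at 0.010 for that time course and RYK at 0.019 between the agents at 18 h. The cause was not tested.

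Over all symbols, the number called for WNT3A at 18 h was 320, with 751 under the replicate block, 809 by DESeq2, 128 to 809 over the settings that do not leave out 1 library and 53 to 387 when 1 library was left out. It was 424 for CHIR99021 at 18 h (96 to 1241, and 10 to 522), with 918 by DESeq2, 576 with no filter, 1241 with the compared groups alone and 789 with the length offset. It was 66 for WNT3A at 6 h (2 to 249, and 13 to 88) and 3 for CHIR99021 at 6 h (1 to 65, and 1 to 14). It was 22 for the WNT3A time course (0 to 415, and 0 to 101), 1 for that of CHIR99021 (0 to 134, and 0 to 83), and between the agents 1 at 6 h (0 to 30, and 0 to 5) and 0 at 18 h (0 to 9, and 0 to 6). Depth left LGR5 untested, and 2 libraries a group limit the precision of the other 9 genes.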
